A study of Mus musculus with 36 samples.

Results

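Mitochondrial fusion and fission genes were followed in C2C12 myotubes, muscle cells with many nuclei that arise when this line of mouse myoblasts is kept in low-serum medium. The 10 genes, Mfn1, Mfn2, Opa1, Dnm1l, Fis1, Mff, Mief1, Mief2, Oma1 and Yme1l1, were chosen by name as the core machinery and were taken from the count table by their gene names, each matching 1 of the 55416 genes listed. All 10 passed the filter on low counts, which kept 13995 genes. RNA sequencing covered 36 libraries in 6 groups of 6. On day 3 of differentiation the myotubes received an antisense LNA (locked nucleic acid), either a negative control (Control) or one against the long non-coding RNA Tug1 (Tug1-KD), and on day 4 they were left unstimulated with the electrodes in place (Rest) or underwent 3 h of electrical pulse stimulation, which makes myotubes contract as an in vitro stand-in for exercise. EPS 0h cells were harvested as the pulses ended and EPS 3h cells once 3 h more had passed, so the groups were Rest Control, EPS 0h Control, EPS 3h Control, Rest Tug1-KD, EPS 0h Tug1-KD and EPS 3h Tug1-KD. All groups shared the cell line, the medium and the transfection, and the study compared how stimulation and Tug1 knockdown, alone and together, change the transcriptome. The libraries were wells of a single cell line from independent experiments that the labels do not number, so p-values measure the spread between these wells.

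Mitochondria are joined and divided by large GTPases of the dynamin family. MFN1 and MFN2 fuse the outer membranes and OPA1 the inner membranes, while DRP1, the product of Dnm1l, is drawn from the cytosol to the outer membrane by the receptors FIS1, MFF, MiD51 (Mief1) and MiD49 (Mief2) and constricts the organelle. OPA1 is cut by 2 inner membrane proteases, YME1L1, which acts in resting cells, and OMA1, which is activated by stress, and in skeletal muscle the balance between fusion and division is known to bear on respiratory capacity and fibre health.

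The genes on which the results turn are Mief1, Mief2, Oma1 and Mfn2, and the 120 bases before the annotated transcription start (GENCODE canonical transcript, GRCm39) are printed for the 3 of them whose window lies outside exons of the same gene. The capitals mark motifs found by a search of both strands for 10 short motifs. In Mief1 (chr15:80118029-80118148, plus strand) and Mief2 (chr11:60619029-60619148, plus strand) they mark the GC box, GGGCGG, a binding sequence of Sp1-type factors, and in Mfn2 (chr4:147989586-147989705, minus strand) an E-box, CANNTG, the sequence that MyoD-type factors bind.

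Mief1: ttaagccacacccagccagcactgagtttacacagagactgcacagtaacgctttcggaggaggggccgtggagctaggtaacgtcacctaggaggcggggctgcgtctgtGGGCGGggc
Mief2: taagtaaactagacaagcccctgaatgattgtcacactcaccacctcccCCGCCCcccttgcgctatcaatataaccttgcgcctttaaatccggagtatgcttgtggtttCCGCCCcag
Mfn2: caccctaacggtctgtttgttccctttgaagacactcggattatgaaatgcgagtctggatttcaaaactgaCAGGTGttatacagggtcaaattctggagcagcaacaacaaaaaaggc

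The Mief1 window held 1 GC box, 9 bases before the start, and the Mief2 window held 2, at 71 and 9 bases, in the opposite orientation. A GC box stood in 30.9% of 21479 promoter windows of the same length and an E-box in 38.3%, so both are common. None of the 3 windows held a CRE (TGACGTCA, in 1.38% of all windows), an AP-1 site (TGANTCA, 2.90%), a heat shock element core (GAANNTTC, 2.83%), an NRF1 core (CGCATGCG, 1.23%) or an ERR element (TCAAGGTCA, 0.154%). The ETS site (CCGGAAG, 5.10%), the CCAAT box (CCAAT, 24.2%) and the TATA box (TATAAA, 6.17%) were also not found in them. A match is a run of letters and not a measured binding site. In GRCm39 the 4 genes span chr15:80118149-80138322 (Mief1), chr11:60618117-60623778 (Mief2), chr4:103170737-103229065 (Oma1) and chr4:147955508-147989585 (Mfn2), with 6, 4, 9 and 19 exons in the canonical transcript. The Mief2 gene begins before its printed window, so an annotated transcript other than the canonical one starts upstream of that window. On the opposite strand, Mfn2 shares exon with Fv1, Mfn1 with Gnb4 and the unnamed gene model Gm66043, and Dnm1l with Yars2 and Gm49521. The largest overlap with a single exon of these genes was 1245 bases for Mfn2, 4740 for Mfn1 and 3231 for Dnm1l.

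Each library held between 17005079 and 24181167 counts on genes, and levels are given as normalised RPM, counts per megaread of library size after scaling by TMM factors. The targeted RNA was lower in Tug1-KD myotubes, with Tug1 at Rest at 48.3 ± 6.77 RPM (mean ± SD, n = 6) with the Control LNA and 27.2 ± 3.68 RPM with Tug1-KD (log2FC -0.83 ± 0.171 SE, edgeR quasi-likelihood FDR = 0.000915), and the log2FC after stimulation was -0.57 (EPS 0h, FDR = 0.0178) and -0.51 (EPS 3h, FDR = 0.0414). On the component with the most variance within groups (37.5%), replicates 1 to 3 lay on one side and replicates 4 to 6 on the other, except that EPS 3h Control replicate 3 lay with replicates 4 to 6, and the values of each set are given where they change a call. Replicate 3 of both EPS 3h groups stood apart from replicates 1 and 2 of its group. Its root mean square difference in log2 CPM from their mean was 0.59 (Control) and 0.49 (Tug1-KD). From the mean of replicates 4 to 6 it was 0.50 and 0.40. Results that rest on EPS 3h were also computed without those 2 replicate 3 libraries, an alternative chosen after seeing the data. The 10 myotube markers were all expressed and summed to 17055 to 22941 RPM over the 36 libraries. With Tug1-KD against Control, 1 of them was called lower at EPS 0h and 1 at EPS 3h. Against Rest, 0 were called in Control, while in Tug1-KD 1 was higher and 1 lower at EPS 0h, and 1 higher and 2 lower at EPS 3h. The 6 myoblast or cycling cell markers summed to 136 to 176 RPM in Rest Control, 174 to 209.8 RPM in EPS 0h Control and 123 to 178 RPM in EPS 3h Control. Against Rest in Control, 2 of these 6 were called higher and 1 lower at EPS 0h, beside 38.9% of all genes. At EPS 3h in Control 1 was higher and 2 lower, beside 52% of all genes. Whether the marker counts differ from the shares of all genes was not tested. The 5 markers of cell types foreign to the line summed to 1.76 to 4.17 RPM in Rest Control and 7.48 to 13.3 RPM in EPS 3h Control, where Epcam made up 3.72 ± 1.17 RPM, and none was at 0 over a whole group. Their part in the results below was not tested. In these bulk samples, fewer cells of a type and less RNA per cell cannot be told apart.

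**Figure D1:**
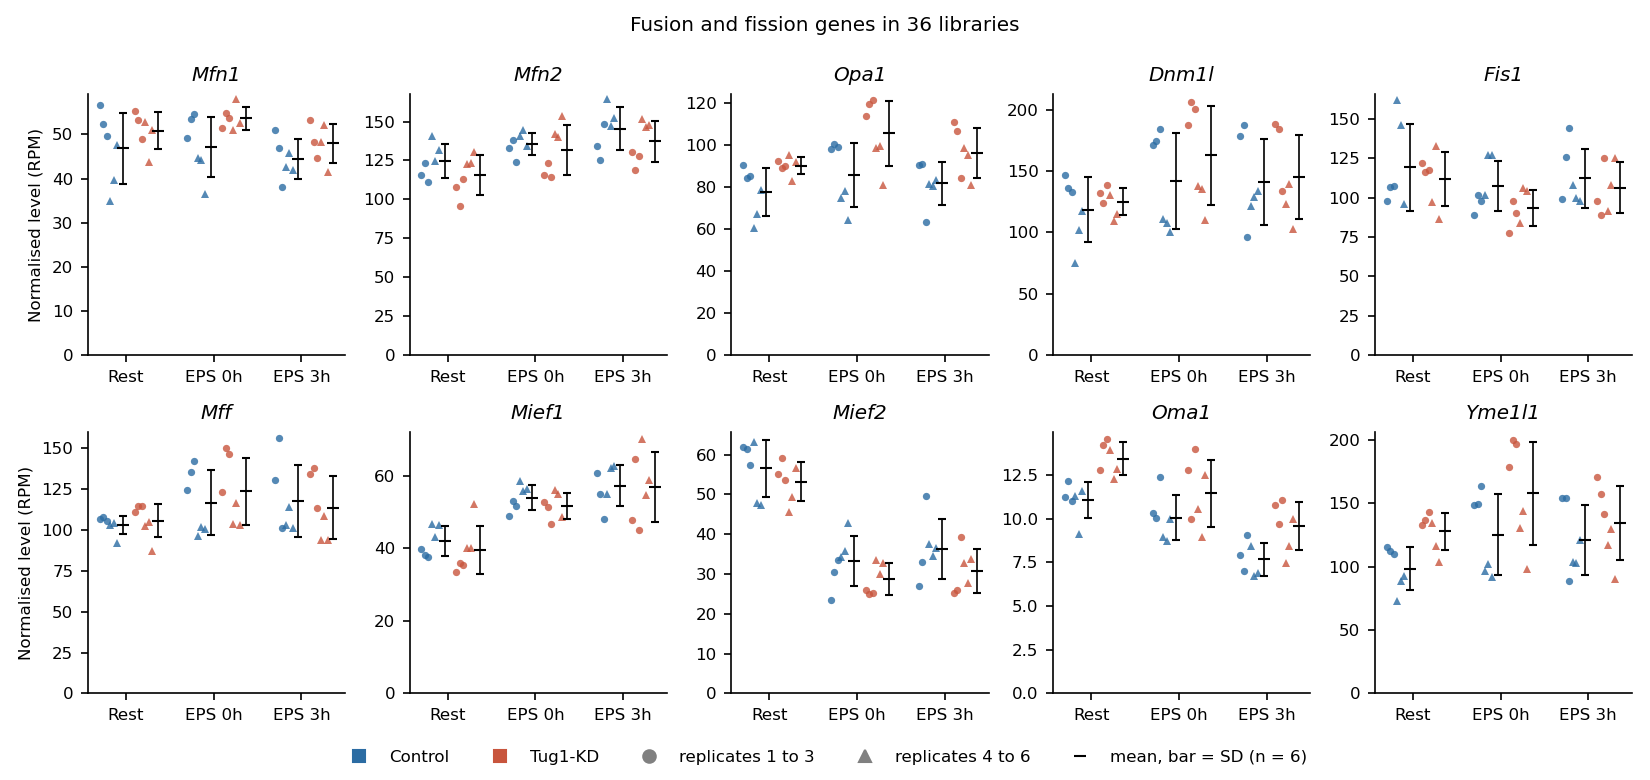
Normalised level (RPM, y axis from 0) of the 10 genes in each of the 36 libraries by condition, with Control in blue, Tug1-KD in red, replicates 1 to 3 as circles, replicates 4 to 6 as triangles and the mean ± SD in black (n = 6). Mief2 sits between 47.4 and 63.1 RPM in Rest Control and between 23.5 and 42.7 RPM in EPS 0h Control, while Dnm1l and Yme1l1 differ more between the sets of replicates than between the conditions.

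All 10 genes were well covered, with 115 (Oma1) to 3997 (Dnm1l) counts per gene and library. Per length of the exons (RPKM), the levels in Rest Control ran from Fis1 at 38.3 ± 8.87 RPKM to Oma1 at 0.987 ± 0.0927 RPKM. Dnm1l followed Fis1 at 16.2 RPKM, then came Mief2 (12.6), Mfn2 (11.8), Yme1l1 (11.2), Mff (9.33), Opa1 (8.39), Mief1 (4.18) and Mfn1 (3.48). In this order, the libraries of Fis1 did not overlap those of Dnm1l, those of Opa1 did not overlap those of Mief1 and those of Mfn1 did not overlap those of Oma1, while the other neighbours overlapped. The exon length counts every annotated transcript, of which Mfn2 has 131 and Fis1 13, so these levels compare genes only roughly. After stimulation Mief2 was at rank 7, at 7.44 RPKM in EPS 0h Control and 8.11 RPKM in EPS 3h Control, and Fis1, Dnm1l, Mief1, Mfn1 and Oma1 kept ranks 1, 2, 8, 9 and 10 in all 6 groups.

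Stimulation was compared with Rest within each LNA, to ask which of the genes differ after it. Each LNA had a single Rest group, and EPS 3h had no unstimulated group with the same recovery. At EPS 3h, stimulation and the 3 h more in culture therefore cannot be told apart. At EPS 0h, Mief1 rose and Mief2 fell in Control and in Tug1-KD myotubes. At EPS 3h these changes were still present, Oma1 was lower and Mfn2 higher, again with both LNAs. At an FDR under 0.05 over all genes tested (edgeR quasi-likelihood test), 2 of the 10 genes were called at EPS 0h in Control, 1 higher and 1 lower, where 38.9% of all genes were called, and the same 2 in Tug1-KD, where 45.6% were called. At EPS 3h, 4 of the 10 were called in Control, 2 higher and 2 lower, against 52% of all genes, and the same 4 in Tug1-KD, against 52.1% of all genes. Whether these counts differ from the shares of all genes was not tested, and 10 genes are few for such a comparison. The same holds for the counts with the replicate block described below. Their median log2FC was 0.13 in both Control comparisons and 0.21 (EPS 0h) and 0.08 (EPS 3h) in Tug1-KD, beside -0.03 and -0.02 for all genes in Control and -0.03 and -0.04 in Tug1-KD. The comparisons of EPS 0h and EPS 3h with Rest share the Rest libraries.

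**Figure D2:**
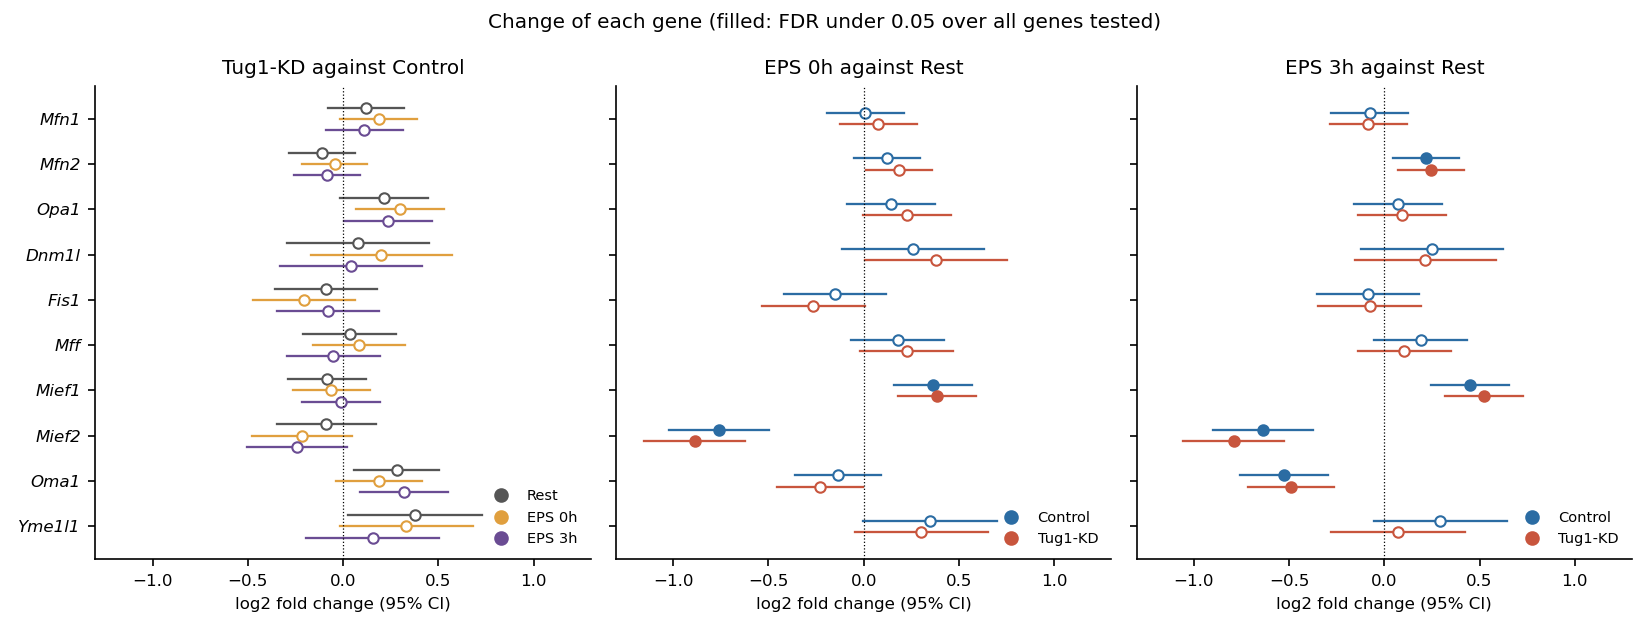
log2FC of the 10 genes (x axis) with its 95% confidence interval for Tug1-KD against Control in each condition (left), EPS 0h against Rest (middle) and EPS 3h against Rest (right), from the edgeR fit to all 36 libraries; filled points have an FDR under 0.05. Filled points stand at Mief1 and Mief2 in the middle panel, at Mfn2, Mief1, Mief2 and Oma1 in the right panel and nowhere in the left panel.

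Of the fusion GTPases, Mfn2, which also tethers mitochondria to the endoplasmic reticulum, was called at EPS 3h. In Rest Control its lowest, median and highest libraries were 111, 124 and 141 RPM, in EPS 0h Control 124, 136 and 144 RPM and in EPS 3h Control 125, 148 and 164 RPM. The groups overlapped, and all 6 EPS 3h libraries lay above the Rest mean. The log2FC at EPS 3h was 0.22 ± 0.0853 (SE) in Control (edgeR FDR = 0.0295) and 0.25 ± 0.0854 in Tug1-KD (FDR = 0.0150), a rise of 16.5% and 18.7%. Within replicates 1 to 3 the Control value was 0.23 and within replicates 4 to 6 it was 0.22. With both replicate 3 libraries of EPS 3h left out, the Control value was 0.21 (FDR = 0.0561) and the Tug1-KD value 0.24 (FDR = 0.0276). The size of this rise depended on the scaling. Scaling by library size alone moved the median log2FC of all genes by -0.17 at EPS 3h with either LNA, and Mfn2 was then at 0.05 (FDR = 0.595) in Control and 0.08 (FDR = 0.405) in Tug1-KD, still above the median of all genes and no longer called.

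Mfn1, the other mitofusin, and Opa1, which also shapes the cristae, were not called after stimulation with either LNA. Mfn1 had a log2FC of 0.01 (95% CI -0.19 to 0.21) at EPS 0h and -0.08 (-0.28 to 0.13) at EPS 3h in Control. Its libraries ran from 35.0 to 56.7 RPM in Rest Control and from 38.2 to 51.1 RPM in EPS 3h Control. Opa1 had a log2FC of 0.14 (-0.09 to 0.38) and 0.07 (-0.16 to 0.30) in Control, with libraries of 60.4 to 90.4 RPM at Rest and 63.3 to 91.1 RPM at EPS 3h. In Tug1-KD the largest of the 4 values was that of Opa1 at EPS 0h, 0.23 (FDR = 0.0995). For that Opa1 value the sets differed, with 0.40 (FDR = 0.0118) in replicates 1 to 3 and 0.05 (FDR = 0.804) in replicates 4 to 6.

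Dnm1l, the fission GTPase, had the largest coefficient of variation of the 10 genes over the 6 EPS 0h Control libraries, 27.6%. The mean of Dnm1l there was 177 RPM in replicates 1 to 3 and 106 RPM in replicates 4 to 6. Its lowest, median and highest libraries were 75.1, 125 and 146 RPM in Rest Control, 101, 141 and 185 RPM in EPS 0h Control and 96.5, 131 and 187 RPM in EPS 3h Control. The log2FC was 0.26 ± 0.183 at EPS 0h (FDR = 0.275) and 0.25 ± 0.183 at EPS 3h (FDR = 0.255) in Control, and 0.38 ± 0.183 at EPS 0h in Tug1-KD (FDR = 0.0887). Within replicates 1 to 3 that last value was 0.60 (FDR = 0.00903) and within replicates 4 to 6 it was 0.11. At EPS 3h in Control the order was the other way, with 0.17 in replicates 1 to 3 and 0.38 (FDR = 0.0290) in replicates 4 to 6.

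The 4 receptors of DRP1 did not move together. Mief2 (MiD49) showed the largest change of the 10 genes in each comparison with Rest. Its lowest, median and highest libraries were 47.4, 59.4 and 63.1 RPM in Rest Control, 23.5, 33.8 and 42.7 RPM in EPS 0h Control and 27.0, 35.6 and 49.7 RPM in EPS 3h Control. Every EPS 0h Control library lay below every Rest Control library, and at EPS 3h only replicate 3 reached into the Rest range. At EPS 0h the level fell by 41.0% in Control (log2FC -0.76 ± 0.129, edgeR FDR = 1.49e-05), and within the sets of replicates the log2FC was -1.05 and -0.49. At EPS 3h it fell by 35.7% (log2FC -0.64 ± 0.129, FDR = 8.81e-05), and without replicate 3 of EPS 3h Control the log2FC was -0.75 (FDR = 7.46e-06).

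In Tug1-KD myotubes the Mief2 libraries ran from 45.7 to 59.2 RPM at Rest, from 25.0 to 33.6 RPM at EPS 0h and from 25.3 to 39.3 RPM at EPS 3h. The Rest libraries did not overlap either stimulated group. The level fell by 45.9% at EPS 0h (log2FC -0.89 ± 0.130, edgeR FDR = 9.88e-07) and fell by 42.2% at EPS 3h (log2FC -0.79 ± 0.130, FDR = 3.63e-06). Mief2 shares at least 911 bases of exon, the largest overlap with a single exon, with Flii, which lies on the opposite strand. The strand setting of the counting is not given in the sources used here. Flii was measured at 245 to 404 RPM and had log2FC values of -0.10 to -0.13 in these 4 comparisons, with an FDR of 0.209 to 0.377.

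Mief1 (MiD51), the relative of Mief2, moved the other way. Its lowest, median and highest libraries were 37.5, 41.4 and 46.6 RPM in Rest Control, 48.8, 54.3 and 58.5 RPM in EPS 0h Control and 48.1, 57.9 and 62.7 RPM in EPS 3h Control. No Control library after stimulation overlapped the Rest Control libraries. The rise was 28.7% at EPS 0h (log2FC 0.36 ± 0.10, edgeR FDR = 0.00403) and 36.6% at EPS 3h (log2FC 0.45 ± 0.10, FDR = 0.000295). With library size scaling the values were 0.29 and 0.28, still called. Within replicates 1 to 3 they were 0.41 and 0.53 and within replicates 4 to 6 they were 0.32 and 0.40.

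In Tug1-KD myotubes Mief1 ran from 33.5 to 52.1 RPM at Rest, from 46.5 to 56.0 RPM at EPS 0h and from 45.0 to 70.2 RPM at EPS 3h. These ranges overlapped because of a single Rest library, replicate 6, whose next neighbour was at 40.0 RPM. The log2FC was 0.39 ± 0.101 at EPS 0h (edgeR FDR = 0.00203) and 0.52 ± 0.101 at EPS 3h (FDR = 4.27e-05). Within replicates 4 to 6 alone, the set that holds this library, the EPS 0h value was 0.27 (FDR = 0.0767).

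The ratio of Mief2 to Mief1 within a library does not depend on scaling, and is given as a description because the pair was chosen after its values were seen. Counts of Mief2 stood at 1.02 to 1.62 times those of Mief1 in Rest Control and at 0.482 to 0.760 times in EPS 0h Control. In EPS 3h Control the ratio was 0.445 to 1.03, and the library at 1.03 was replicate 3. In Tug1-KD the ratio was 1.09 to 1.64 at Rest, 0.488 to 0.674 at EPS 0h and 0.402 to 0.874 at EPS 3h. More Mief2 than Mief1 reads were thus counted in all 12 Rest libraries and in 1 of the 24 stimulated libraries.

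**Figure D3:**
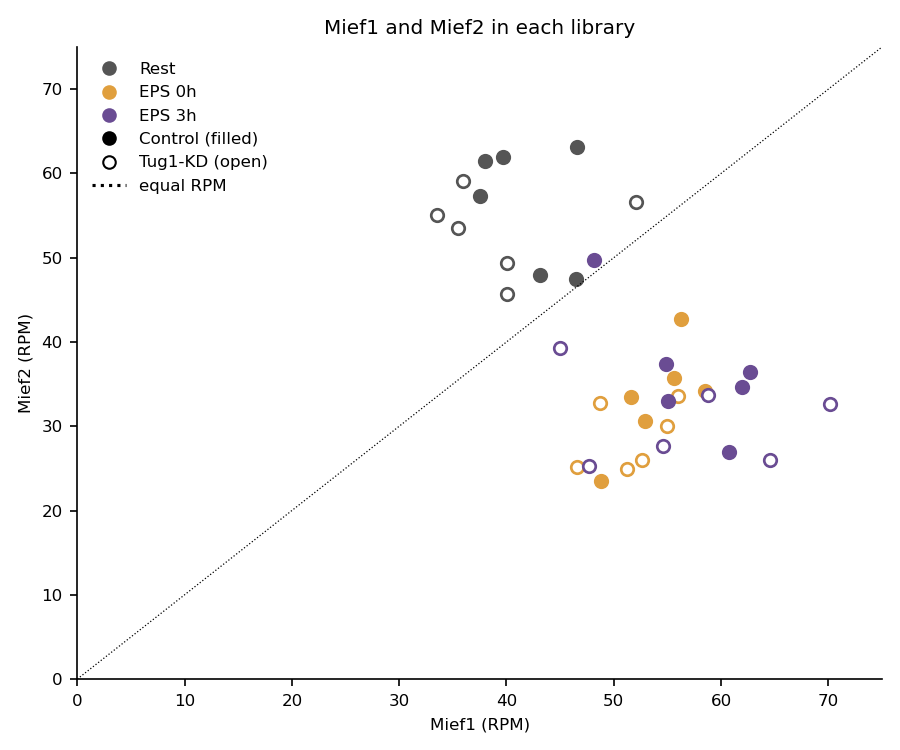
Level of Mief2 (y axis, RPM) against Mief1 (x axis, RPM) in the 36 libraries, grey for Rest, orange for EPS 0h, purple for EPS 3h, filled for Control and open for Tug1-KD. All 12 Rest libraries lie above the dotted line of equal RPM, and of the 24 stimulated libraries only EPS 3h Control replicate 3, with Mief2 at 49.7 and Mief1 at 48.1 RPM, does.

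Fis1 and Mff, the other receptors, were not called after stimulation. Fis1 had 95.9, 107 and 162 RPM in its lowest, median and highest Rest Control libraries and 89.0, 102 and 127 RPM at EPS 0h, with a log2FC of -0.15 (95% CI -0.42 to 0.12) in Control and -0.26 (-0.53 to 0.00) in Tug1-KD, where replicates 1 to 3 gave -0.41 (FDR = 0.0142) and replicates 4 to 6 gave -0.11. Within replicates 1 to 3 the EPS 3h value in Control was 0.26 and within replicates 4 to 6 it was -0.40, so the sets differed in sign. Mff had 92.1, 105 and 108 RPM at Rest and 96.5, 113 and 142 RPM at EPS 0h in Control, with a log2FC of 0.18 (-0.07 to 0.42). In replicates 1 to 3 alone that value was 0.33 (FDR = 0.0488) and in replicates 4 to 6 alone it was close to 0. The same comparison in Tug1-KD gave 0.32 (FDR = 0.0449) and 0.13 in the sets.

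The 2 proteases that cut OPA1 gave different results. Oma1, the stress-activated protease, had 9.10, 11.3 and 12.2 RPM in the lowest, median and highest Rest Control libraries, 8.73, 10.0 and 12.4 RPM in EPS 0h Control and 6.74, 7.45 and 9.07 RPM in EPS 3h Control. At EPS 0h the groups overlapped and the log2FC was -0.14 ± 0.111 (edgeR FDR = 0.349). At EPS 3h every Control library lay below every Rest library, if only by a small margin, and the level fell by 30.6% (log2FC -0.53 ± 0.113, FDR = 0.000172). In Tug1-KD the Oma1 libraries ran from 12.3 to 14.6 RPM at Rest and from 7.46 to 11.1 RPM at EPS 3h without overlap, a log2FC of -0.49 ± 0.112 (FDR = 0.000373). The values within replicates 1 to 3 and 4 to 6 were -0.50 and -0.53 in Control and -0.38 and -0.59 in Tug1-KD.

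Yme1l1, the protease of resting cells, was not called, with 72.7, 101 and 115 RPM in Rest Control, 91.8, 125 and 164 RPM in EPS 0h Control and 89.2, 112 and 155 RPM in EPS 3h Control. The log2FC was 0.35 ± 0.173 at EPS 0h (edgeR FDR = 0.111) and 0.29 ± 0.173 at EPS 3h (FDR = 0.154) in Control, and 0.30 and 0.07 in Tug1-KD. At EPS 0h the value within replicates 1 to 3 was 0.45 (FDR = 0.0227) in Control and 0.49 (FDR = 0.0103) in Tug1-KD, against 0.19 and 0.07 within replicates 4 to 6. At EPS 3h in Control it was 0.26 within replicates 1 to 3 and 0.37 (FDR = 0.0442) within replicates 4 to 6.

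Same-numbered libraries met a rule for pairs, given with the processing, for EPS 0h and EPS 3h against Rest in Control and EPS 0h against Rest in Tug1-KD. A replicate block, a term for each replicate number, was added to the fit there. The separation of replicates 1 to 3 from 4 to 6 can by itself meet this rule, so paired wells are not shown. A term for the set of replicates alone called 3, 5 and 7 of the 10 genes in these comparisons, in that order, against 48.1%, 59.9% and 55.4% of all genes. At EPS 0h in Control the replicate block called 3 of the 10 genes, adding Yme1l1 (FDR = 0.0158), against 49.9% of all genes. At EPS 3h in Control it called 6, adding Yme1l1 (FDR = 0.0211) and Mff (FDR = 0.0434), against 61.2% of all genes. At EPS 0h in Tug1-KD the count moved from 2 to 7, against 56.9% of all genes. Added there were Mfn2 (FDR = 0.0101), Dnm1l (0.0204), Mff (0.0154) and Yme1l1 (0.0408), which were higher, and Oma1 (0.0172), which was lower. The log2FC values themselves moved by little, that of Dnm1l from 0.38 to 0.34.

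Recovery was followed from EPS 0h to EPS 3h, without an unstimulated group over these 3 h, so recovery and time in culture cannot be told apart. Oma1 was called in Control, from a mean of 10.1 ± 1.31 to 7.67 ± 0.945 RPM, with all 6 EPS 3h libraries below the EPS 0h mean (log2FC -0.39 ± 0.113, edgeR FDR = 0.0134), and was the only one of the 10 genes, against 16.6% of all genes. Within either set alone it was not called (-0.43, FDR = 0.0547, and -0.32, FDR = 0.174). In Tug1-KD none of the 10 was called, against 15.7% of all genes. Oma1 there went from 11.5 ± 1.93 to 9.57 ± 1.38 RPM (log2FC -0.26 ± 0.112, FDR = 0.121), and with the replicate block, under which 24.1% of all genes were called, its FDR was 0.0314. Mief1 and Mief2 had log2FC values of 0.09 and 0.12 in Control and 0.14 and 0.10 in Tug1-KD over these 3 h, with an FDR of at least 0.424.

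Tug1-KD was compared with Control in each condition, to ask whether the knockdown changes these genes. None of the 10 was called at Rest, at EPS 0h or at EPS 3h (edgeR FDR under 0.05), while 10%, 14.3% and 11.5% of all genes were called. At an unadjusted p under 0.05, 2 of the 10 genes passed at Rest, 1 at EPS 0h and 2 at EPS 3h, against 21.3%, 26.7% and 23.6% of all genes. The median log2FC of the 10 genes was 0.06, 0.14 and 0.02 in the 3 conditions, beside -0.03, 0.00 and -0.01 for all genes.

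At Rest, Yme1l1, Oma1 and Opa1 had the largest positive values. Oma1 had 9.10, 11.3 and 12.2 RPM in Rest Control and 12.3, 13.4 and 14.6 RPM in Rest Tug1-KD, and these groups did not overlap, but the log2FC of 0.28 ± 0.11 had an FDR of 0.11. At EPS 0h its log2FC was 0.19 (FDR = 0.297), with 4 of 6 Tug1-KD libraries above the Control mean. At EPS 3h its log2FC was 0.32 ± 0.113 (edgeR FDR = 0.0636), and without replicate 3 of EPS 3h Control it was 0.37 (FDR = 0.0342). Opa1 was above the Control mean in 6 of 6 Tug1-KD libraries at Rest, with 83.1 to 95.4 RPM against 60.4 to 90.4 RPM (log2FC 0.22 ± 0.114, FDR = 0.281). At EPS 0h Opa1 ran from 81.1 to 121 RPM in Tug1-KD and from 64.3 to 100.3 RPM in Control (log2FC 0.30 ± 0.114, FDR = 0.0742). Yme1l1 had a log2FC of 0.38 ± 0.173 at Rest (FDR = 0.188), 0.33 ± 0.173 at EPS 0h (FDR = 0.217) and 0.15 ± 0.173 at EPS 3h (FDR = 0.658).

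Within the sets of replicates, the values at Rest were 0.06 (replicates 1 to 3) and 0.39 (replicates 4 to 6) for Opa1 and 0.27 and 0.29 for Oma1. In replicates 4 to 6 alone, Opa1 (FDR = 0.0239) and Yme1l1 (0.48, FDR = 0.0294) were called at Rest, and Opa1 (0.36, FDR = 0.0351) and Mfn1 (0.37, FDR = 0.0421) at EPS 0h. The call at Rest also depended on the fit. With a set block, a term for the set of replicates, Oma1 (FDR = 0.0392) and Yme1l1 (FDR = 0.0126) were called higher at Rest, against 15.9% of all genes. With the Rest groups fitted alone both were called (FDR = 0.0383 and 0.0326), against 12.3% of all genes. Same-numbered libraries met the rule for pairs at EPS 0h and EPS 3h, with the limit given above. With the replicate block, Opa1 (FDR = 0.0171) and Yme1l1 (FDR = 0.0282) were called higher at EPS 0h, against 24.3% of all genes, and Oma1 (FDR = 0.0108) at EPS 3h, against 20.6% of all genes.

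The remaining 7 genes had an FDR between 0.228 and 0.970 in these 3 comparisons. Mfn1 had log2FC values of 0.12, 0.19 and 0.11 at Rest, EPS 0h and EPS 3h, and Mfn2 of -0.11, -0.04 and -0.08. Dnm1l was at 0.08, 0.20 and 0.04, with a 95% CI at Rest of -0.29 to 0.45 that leaves room for changes in either direction. Among the receptors, Fis1 was at -0.09, -0.20 and -0.08, Mff at 0.04, 0.08 and -0.05, Mief1 at -0.08, -0.06 and -0.01 and Mief2 at -0.09, -0.21 and -0.24.

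Whether the knockdown altered the response to stimulation was tested as an interaction. None of the 10 genes was called at EPS 0h or EPS 3h (edgeR FDR = 1.00 for each). At an unadjusted p under 0.05, 0 of them passed, against 2.3% of all genes at EPS 0h and 3.07% at EPS 3h. Over all genes 0% were called at EPS 0h and 0.00715%, 1 gene, at EPS 3h. For Mief2 the difference between the responses was -0.13 (95% CI -0.50 to 0.24) at EPS 0h and -0.16 (-0.53 to 0.22) at EPS 3h, for Mief1 0.02 (-0.27 to 0.31) and 0.07 (-0.21 to 0.36), and for Oma1 -0.09 (-0.41 to 0.22) and 0.04 (-0.28 to 0.36).

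The balance between members was tested as a log2 ratio within each library, for Opa1 over Dnm1l (inner membrane fusion over fission), Mfn2 over Mfn1 and Oma1 over Yme1l1, in 9 comparisons and with exact two-sided permutation tests of 6 against 6 libraries, whose smallest p is 0.00216, so that a lone difference could not pass after adjustment over all the tests. None of the 27 differences passed an adjusted p of 0.05, and 5 had an unadjusted p under 0.05. Oma1 over Yme1l1 had a mean log2 ratio of -3.14 ± 0.259 in Rest Control, -3.61 ± 0.265 in EPS 0h Control and -3.96 ± 0.434 in EPS 3h Control. The difference of -0.81 at EPS 3h had an exact p of 0.00649 and an adjusted p of 0.136, with all 6 libraries below the Rest mean. Mfn2 counts were 2.04 to 4.02 times those of Mfn1 in Rest Control and 2.63 to 3.89 times in EPS 3h Control (difference of log2 ratios 0.28, exact p = 0.149, adjusted p = 0.334). In Tug1-KD the difference between EPS 3h and Rest was 0.33 (exact p = 0.0281, adjusted p = 0.152). Between Tug1-KD and Control it was -0.25 at Rest, -0.25 at EPS 0h and -0.20 at EPS 3h (exact p = 0.199, 0.0823 and 0.173). Opa1 over Dnm1l differed by -0.17 between EPS 3h and Rest in Control (exact p = 0.162, adjusted p = 0.334) and by 0.12 between Tug1-KD and Control at Rest (exact p = 0.128, adjusted p = 0.334).

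The sets of replicates separated several of the 10 genes in the same direction in all 6 groups. Dnm1l, Yme1l1, Mff and Oma1 were lower in replicates 4 to 6 than in 1 to 3 in 6 of 6 groups, by a mean of -0.46, -0.45, -0.30 and -0.17 on the log2 scale. Mfn2 and Mief1 were higher in replicates 4 to 6 in 6 of 6 groups, by 0.21 and 0.19. In EPS 0h Control, Dnm1l had a mean of 177 RPM in replicates 1 to 3 and 106 RPM in replicates 4 to 6. For Dnm1l the mean gap was larger than any of its log2FC values with stimulation or knockdown.

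**Figure D4:**
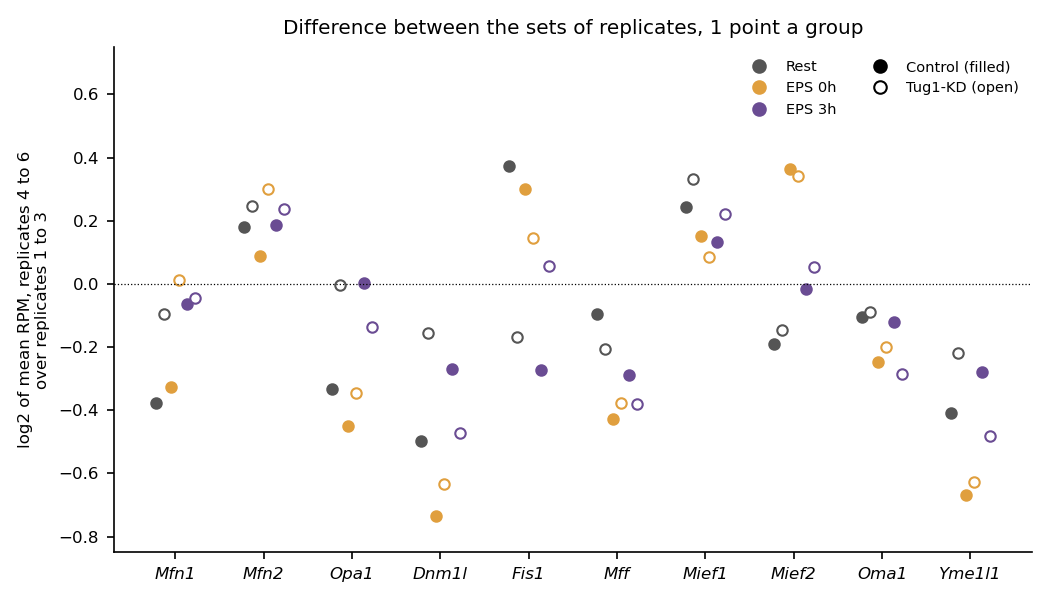
log2 ratio of the mean RPM in replicates 4 to 6 over that in replicates 1 to 3 (y axis) for each of the 10 genes, 1 point for each of the 6 groups, colored by condition and filled for Control. All 6 points lie below 0 for Dnm1l, Mff, Oma1 and Yme1l1 and above 0 for Mfn2 and Mief1.

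Dnm1l, Yme1l1 and Opa1 rose and fell together from library to library. Over the 36 libraries the Pearson r of log2 CPM was 0.93 for Dnm1l and Yme1l1, 0.90 for Opa1 and Yme1l1 and 0.87 for Opa1 and Dnm1l, and after centring within each group and set of replicates it was 0.90, 0.85 and 0.93. Of the 45 pairs of the 10 genes, 6 had an r above 0.8 and 11 an r below -0.5. These values are descriptions, since the libraries of a group share the sets and genes share library composition. Over all genes tested, the gene most like each member was Spop for Mfn1 (r = 0.87), Tfip11 for Mfn2 (0.89), Ncoa7 for Opa1 (0.95), Pcm1 for Dnm1l (0.97), Mrps24 for Fis1 (0.93) and Laptm4a for Mff (0.93). For Mief1 it was Flvcr1 (0.91), for Mief2 Ptp4a3 (0.93), for Oma1 Pknox2 (0.85) and for Yme1l1 Rhoq (0.95). Within groups and sets the lowest of these values were those of Oma1 with Pknox2 and of Mfn2 with Tfip11, 0.58 and 0.59.

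The wider machinery was read from 5 lists of 51 further genes, of which 49 passed the filter. After stimulation 12 of the 49 were higher and 8 lower at EPS 0h in Control (40.8% called) and 12 and 11 at EPS 3h (46.9%), close to the shares of all genes given above. In Tug1-KD 11 were higher and 12 lower at EPS 0h (46.9%), and 12 were higher and 10 lower at EPS 3h (44.9%). With Tug1-KD against Control, 4 were higher and 2 lower at Rest (12.2%), against 10% of all genes. At EPS 0h, 8 were higher and 1 lower (18.4%), against 14.3%. At EPS 3h, 6 were higher and 2 lower (16.3%), against 11.5%. No interaction was called. From EPS 0h to EPS 3h, 5 were higher and 1 lower in Control (12.2%), against 16.6% of all genes. In Tug1-KD 4 were higher and 2 lower (12.2%), against 15.7%. Whether the counts in any list differ from the shares of all genes was not tested, and each list is short.

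Among 12 accessory factors of fusion and fission, 5 rose and 2 fell at EPS 0h in Control and 3 rose and 3 fell at EPS 3h. Mtfr2, a mitochondrial fission regulator, rose most, with 2.24 ± 0.584 RPM at Rest, 10.4 ± 2.77 RPM at EPS 0h (log2FC 2.22 ± 0.221, edgeR FDR = 7.23e-10) and, later, 13.5 ± 3.94 RPM at EPS 3h (2.58 ± 0.222, FDR = 5.84e-12). Inf2, a formin that assembles actin at fission sites, fell most at EPS 0h (log2FC -0.94 ± 0.126, FDR = 3.19e-07), and Miga2, an outer membrane fusion factor, at EPS 3h (-1.12 ± 0.172, FDR = 1.42e-06). With Tug1-KD at Rest 2 of the 12 were higher and 1 lower, with Mtfp1, an inner membrane fission factor, at 6.59 ± 0.861 against 3.71 ± 1.00 RPM in Control (log2FC 0.83 ± 0.189, FDR = 0.00268) and Inf2 lower (-0.38 ± 0.125, FDR = 0.0428). At EPS 0h and again at EPS 3h, 2 were higher with Tug1-KD and none lower.

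Of 10 inner membrane proteases and partners of Oma1 and Yme1l1, 1 rose and 4 fell at EPS 0h in Control and 1 rose and 2 fell at EPS 3h. Maip1, a partner of the m-AAA protease, rose (log2FC 0.46 and 0.65, edgeR FDR = 0.00531 and 6.98e-05), and Htra2, a protease of the intermembrane space, fell (-0.67 and -0.64, FDR = 0.00591 and 0.00594). None of the 10 was called with Tug1-KD in any of the 3 conditions, where 10%, 14.3% and 11.5% of all genes were called. Of 8 ubiquitin, phosphatase and anchor regulators, 1 rose at EPS 0h and 3 rose and 3 fell at EPS 3h. Marchf5, a ubiquitin ligase of the outer membrane, rose at EPS 0h (0.19, edgeR FDR = 0.00974), and the ligase gene Mul1 fell most at EPS 3h (-0.39, FDR = 0.0240). Akap1, a protein kinase A anchor on the outer membrane, was lower with Tug1-KD at Rest, at 72.4 ± 3.05 against 90.9 ± 7.62 RPM (-0.33 ± 0.0749, FDR = 0.00259), the 1 gene of this list called there. With Tug1-KD 1 of the 8 was higher at EPS 0h and 2 were lower at EPS 3h.

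Of 12 genes of the MICOS complex, which holds the cristae junctions, and the sorting complex, 2 rose and 1 fell in both Control comparisons. Mtx1 rose (log2FC 0.41 and 0.60, edgeR FDR = 0.0250 and 0.000855) and Mtx3 fell (-0.56 and -0.76, FDR = 0.0147 and 0.000858), both subunits of the outer membrane sorting machinery. With Tug1-KD at Rest 2 were higher and none lower, led by Chchd3, a MICOS subunit, at 89.2 ± 15.6 against 58.4 ± 5.36 RPM (0.61 ± 0.114, FDR = 0.000257), and the count was the same at EPS 0h and EPS 3h. Of 7 genes of mitochondrial transport along microtubules, 3 rose and 1 fell at EPS 0h and 3 rose and 2 fell at EPS 3h in Control. Kif5b, the kinesin motor, had 309 ± 71.4 RPM at Rest, 501 ± 106 RPM at EPS 0h and 672 ± 142 RPM at EPS 3h (log2FC 0.70 and 1.12, FDR = 0.000578 and 2.82e-07), and Rhot2, an outer membrane GTPase that links mitochondria to the motor, fell (-0.27 and -0.52, FDR = 0.0170 and 1.08e-05). With Tug1-KD none of the 7 was called at Rest, 3 were higher and 1 lower at EPS 0h, led by Kif5b and Rhot2, and 2 were higher and none lower at EPS 3h.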

How the data were processed

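The authors trimmed reads of stranded poly-A libraries with fastp 0.14.1, checked them with FastQC 0.11.7 and aligned them with STAR 2.5 to GRCm39; the deposited values are raw counts per gene without normalization, and the counting mode and strand setting are not given in the sources used here. Genes without a name held 0.0327% of the counts. Libraries held 17005079 to 24181167 counts on genes, which sets the counting precision.

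A gene was kept where 12 or more of the 36 libraries reached 1 RPM (13995 genes). All 6 groups were fitted in edgeR 4.0.16 (R 4.3.3) with TMM factors and the robust quasi-likelihood F test, without a replicate term, and FDR is Benjamini-Hochberg over all genes tested. The SE of a log2FC is its size over the square root of F. Alternatives were DESeq2 1.42.0, limma-voom (limma 3.58.1), library size or upper quartile scaling, no filter and a filter of 10 counts in 6 libraries. Others were a replicate block, a set block (replicates 1 to 3 against 4 to 6), the compared groups alone and each set of replicates alone. The sets were taken from the data, and the labels do not say whether they are the independent experiments. The fit was tested on simulated data. Replicate numbers were taken as pairs where deviations from the group means correlated above 0.1 in every pair of same-numbered libraries, which held in 6 of 9 comparisons. Libraries of different number were not compared, so the sets of replicates alone can meet this rule. RPKM uses the exon union of GENCODE vM39. Ratios were tested by exact permutation, also within the sets of replicates (scipy 1.17.1).

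The 10 genes, the 5 lists, the markers and the tests were chosen with earlier results of these data known. Named genes are the 10 genes in every comparison, in each list the largest rise and the largest fall past the threshold in 3 comparisons (Tug1-KD at Rest, and each EPS time against Rest in Control), and the gene most like each of the 10. Flii was named after its values were seen. The result for 1 gene that this rule names is not reported here.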

Additional observations from a re-analysis of the deposited data

Results flagged for a closer look

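Of the 78 groups of 6 libraries examined (10 genes and 3 ratios in 6 groups), 3 had a library whose gap to its nearest neighbour, divided by the range of the group, exceeded the critical value of the Dixon test, and chance alone flags about 1 in 20 groups. Mff in Rest Control had its lowest library, replicate 6, at 92.1 RPM, with the others between 103 and 108 RPM. Mief1 in Rest Tug1-KD had its highest library, also replicate 6, at 52.1 RPM, with the others between 33.5 and 40.0 RPM, and this library alone makes the Mief1 range at Rest overlap those of the stimulated Tug1-KD groups. The log2 ratio of Opa1 over Dnm1l in Rest Control was highest in replicate 4, at -0.31, with the others between -0.69 and -0.58. The cause was not tested for any of the 3.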

How the results depend on the processing

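The rise of Mief1 and the fall of Mief2 after stimulation and the fall of Oma1 at EPS 3h kept their direction and stayed called under every alternative run for them, except Mief1 at EPS 0h in Tug1-KD within replicates 4 to 6 (0.27, edgeR FDR = 0.0767). Mfn2 at EPS 3h was called in 8 of 13 alternatives in Control (0.05 to 0.25) and 10 of 13 in Tug1-KD (0.08 to 0.28), and Oma1 from EPS 0h to EPS 3h in Control in 11 of 13. No called value changed sign, while 87 alternative values, not called in either fit, did. The number of the 10 genes called moved by more than 1.5 times in the cases that follow, each with the share of all genes called under the same setting. For Tug1-KD at Rest it went from 0 to 2 with the replicate block (17.2% of all genes), the set block (15.9%), the compared groups alone (12.3%) and replicates 4 to 6 alone (16.1%). The replicate block called Oma1 (FDR = 0.0184) and Yme1l1 (FDR = 0.0131) there, where same-numbered libraries did not meet the rule for pairs (lowest r -0.08). For Tug1-KD at EPS 0h it went from 0 to 2 with both blocks (24.3% and 22.7%) and with replicates 4 to 6 alone (16.6%). At EPS 3h it went from 0 to 1 with DESeq2 (13.2%) and both blocks (20.6% and 18.6%), and lay between 0 and 1 when a replicate 3 library was left out (11.2% and 11.4%). For EPS 0h in Control it went from 2 to 4 in replicates 1 to 3 alone (40.8%). For EPS 0h in Tug1-KD it went from 2 to 4 with library size or upper quartile scaling (50.1% and 48.4%), to 7 with both blocks (56.9% and 55.4%) and in replicates 1 to 3 alone (54.2%), and to 1 in replicates 4 to 6 alone (28.4%). From EPS 0h to EPS 3h it went from 1 to 0 in either set alone in Control (13.8% and 12.8%), and from 0 to 1 with library size scaling (19.8%) and with the replicate block (24.1%) in Tug1-KD. Smaller moves follow. For EPS 3h in Control, 4 became 3 with upper quartile scaling (53.2%), without both replicate 3 libraries (53.8%) and with either other filter. The same count was 5 with the set block (59.9%) and 6 with the replicate block (61.2%) and replicates 4 to 6 alone (48.7%). For EPS 0h in Control, 2 became 3 with both blocks (49.9% and 48.1%). For EPS 0h in Tug1-KD, 2 became 3 with DESeq2 (47.2%) and the compared groups alone (45.9%). For EPS 3h in Tug1-KD, 4 became 3 with either other filter. The shares with the other filters are not given, since those filters keep another set of genes. The replicate block lost no call. With library size scaling Mfn1 was lower at EPS 3h (-0.25 with either LNA, FDR = 0.0397 and 0.0375). Oma1, with 115 to 297 counts per library, has the lowest depth of the 10 genes. A set alone has fewer libraries, and the cause of the moves in these counts was not tested.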
